A study of Mus musculus with 5 samples.

Results

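The loci of 8 mouse genes that hold lymphocytes in a resting state were examined in naïve CD8+ T cells, namely *Foxo1*, *Foxo3*, *Foxp1*, *Btg1*, *Btg2*, *Tob1*, *Cdkn1b* and *Slfn2*. Each locus was described by the DNase I hypersensitive peaks whose summit lay in the gene body or within 50 kb on either side of it in the mm9 annotation, which gave windows of 1342 kb in all. The windows held 80 of 31116 peaks deposited for WT cells and 66 of 25525 deposited for dKO cells. By the criteria of the study, a chromatin-accessible (ChrAcc) site had at least 4-fold enrichment over the background, p under 1e-05 and q under 0.05. After these criteria, 67 of 28472 WT sites and 62 of 24363 dKO sites remained. Where sites of the lists overlapped by at least 1 bp they were merged, and the 8 windows then held 77 sites, 51 of them found in both genotypes.

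DNase-seq reads open chromatin from the short fragments that DNase I cuts out of it. The cells were splenic CD8+ T cells sorted as GFP+ TCRbeta+ CD62Lhi CD44lo-med from mice with hCD2-Cre, a recombinase that per the study is most active in mature peripheral T cells, and a Rosa26 GFP allele that marks cells in which Cre has acted. WT mice (3 replicates) carried intact *Tcf7* and *Lef1*, whereas dKO mice (2 replicates) carried floxed alleles of both genes, which encode the transcription factors Tcf1 and Lef1. Cre and the reporter were thus shared by both genotypes, and the comparison addresses which accessible sites near these genes differ when Tcf1 and Lef1 are missing.

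Quiescence is the actively kept resting state of naïve T cells, in which growth, translation and cell cycle entry are held low until antigen is met. Forkhead factors of the Foxo family drive survival, homing and cell cycle inhibitor genes in resting T cells and are exported from the nucleus when Akt is active, and Foxp1 keeps naïve T cells from responding to IL-7 without antigen. Btg1, Btg2 and Tob1 belong to the BTG/Tob family, which recruits the Ccr4-Not deadenylase and lowers mRNA stability and proliferation. *Cdkn1b* encodes p27Kip1, an inhibitor of cyclin-dependent kinases, and *Slfn2* encodes a Schlafen protein whose loss in mice impairs T cell quiescence.

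The sequences printed here come from the mm9 plus strand and are given 5′ to 3′. The Tcf/Lef and forkhead sets were chosen for their letters. They include shared sites whose counting interval for the ratio of dKO to WT covered 0. The first set shows the sites with the lowest and the highest scaled ratio of dKO to WT among those found in both genotypes, without a marked motif.
*Btg2* -27.8 kb, chr1:136003436-136003577: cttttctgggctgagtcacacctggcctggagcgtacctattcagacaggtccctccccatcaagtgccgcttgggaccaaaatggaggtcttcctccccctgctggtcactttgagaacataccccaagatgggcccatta
*Btg2* -3.99 kb, chr1:135979592-135979753: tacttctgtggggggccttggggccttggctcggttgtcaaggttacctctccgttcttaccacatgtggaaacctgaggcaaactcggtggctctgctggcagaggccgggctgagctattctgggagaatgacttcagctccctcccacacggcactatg
The next set gives the 201 bp around the summit of the 3 WT sites with a match, within 100 bp of the summit, to ATCAAAG, the core letters bound by Tcf1 and Lef1, or its reverse complement, in capitals. At *Foxp1* the match lies just outside the called peak.
*Btg1* +37.8 kb, chr10:96117326-96117526: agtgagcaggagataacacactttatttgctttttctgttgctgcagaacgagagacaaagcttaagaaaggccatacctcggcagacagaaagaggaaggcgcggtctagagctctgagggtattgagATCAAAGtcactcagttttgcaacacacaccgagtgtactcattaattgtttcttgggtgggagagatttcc
*Btg2* +18.1 kb, chr1:135957540-135957740: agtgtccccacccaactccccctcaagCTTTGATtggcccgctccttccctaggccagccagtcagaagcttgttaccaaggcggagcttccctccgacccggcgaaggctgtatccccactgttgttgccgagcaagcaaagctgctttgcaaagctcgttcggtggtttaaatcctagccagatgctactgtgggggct
*Foxp1* +240 kb, chr6:98976151-98976351: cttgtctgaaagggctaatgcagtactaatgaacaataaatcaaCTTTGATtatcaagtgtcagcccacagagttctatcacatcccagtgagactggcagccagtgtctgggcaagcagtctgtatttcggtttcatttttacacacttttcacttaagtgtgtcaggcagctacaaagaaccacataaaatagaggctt
Sites with TGTTTAC, a core sequence of forkhead factors, are represented by the strongest WT-only site of *Foxp1*, the *Btg1* promoter, a site just upstream of *Cdkn1b* and a site in intron 1 of *Cdkn1b*, again with the match in capitals. At both *Cdkn1b* sites the match lies just outside the called peak of either list.
*Foxp1* -43.2 kb, chr6:99259626-99259826: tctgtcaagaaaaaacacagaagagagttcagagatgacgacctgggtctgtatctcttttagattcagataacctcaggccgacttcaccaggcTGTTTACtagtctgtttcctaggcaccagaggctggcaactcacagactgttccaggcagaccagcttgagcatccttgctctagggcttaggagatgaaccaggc
*Btg1* -0.143 kb, chr10:96079392-96079592: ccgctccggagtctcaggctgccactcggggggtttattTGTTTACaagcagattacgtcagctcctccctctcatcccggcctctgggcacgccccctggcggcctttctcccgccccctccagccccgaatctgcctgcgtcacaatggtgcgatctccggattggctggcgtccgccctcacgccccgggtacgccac
*Cdkn1b* -3.10 kb, chr6:134867220-134867420: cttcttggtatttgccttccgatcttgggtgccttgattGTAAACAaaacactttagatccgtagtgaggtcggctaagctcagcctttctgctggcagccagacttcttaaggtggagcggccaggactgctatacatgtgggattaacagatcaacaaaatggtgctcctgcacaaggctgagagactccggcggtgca
*Cdkn1b* +1.23 kb, chr6:134871544-134871744: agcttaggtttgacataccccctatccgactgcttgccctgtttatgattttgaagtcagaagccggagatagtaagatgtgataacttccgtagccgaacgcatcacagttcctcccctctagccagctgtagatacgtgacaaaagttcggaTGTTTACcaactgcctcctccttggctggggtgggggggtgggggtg
The last set shows the strongest dKO-only sites, both upstream of *Foxo3*, with matches to CCANNAGNNGGC, the central letters of the CTCF consensus, in capitals.
*Foxo3* -14.8 kb, chr10:42011254-42011454: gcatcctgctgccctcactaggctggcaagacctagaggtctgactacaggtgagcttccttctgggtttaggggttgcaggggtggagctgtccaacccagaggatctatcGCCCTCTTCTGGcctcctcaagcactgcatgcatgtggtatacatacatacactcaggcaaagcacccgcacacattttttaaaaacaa
*Foxo3* -18.5 kb, chr10:42014938-42015138: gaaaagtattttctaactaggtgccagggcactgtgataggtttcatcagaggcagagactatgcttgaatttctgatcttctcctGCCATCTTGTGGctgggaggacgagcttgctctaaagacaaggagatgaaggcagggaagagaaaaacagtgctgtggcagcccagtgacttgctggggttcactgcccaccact

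Each list came from the pooled replicates of a genotype, which leaves no spread between replicates and no basis for a p-value between genotypes. The WT list rested on 83923734 fragments and the dKO list on 62242963, a ratio of 1.35. A region without a site in a list is only undetected at the depth of that list. Among marker genes, a promoter site was found in WT cells at 8 of 8 CD8+ T cell genes and 3 of 3 naïve T cell genes. In dKO cells it was found at 7 and 3. The dKO list lacked a site at *Cd3d*, where the WT site was weak, at percentile 6.55. None of 4 B cell, 2 NK cell and 2 CD4+ T cell genes had a promoter site in either list. Of 4 myeloid genes *Itgam* had one in WT cells, at percentile 34.8, and none had one in dKO cells. The part of other cells in the results was not tested.

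Most accessible sites of the 8 genes were present in both genotypes. Of the 67 WT sites, 16 (23.9%, 95% Wilson interval 15.3 to 35.3%) had no dKO site, compared with 27.6% of all WT sites. Of the 62 dKO sites, 10 (16.1%, 9.004 to 27.2%) had no WT site, compared with 14.4% of all dKO sites. Both shares had intervals that covered the share of the whole list. Farther than 1 kb from any TSS of a protein-coding gene, 13 of 52 WT sites (25.0%, 15.2 to 38.2%) were WT-only, compared with 35.1% of all distal WT sites, and 9 of 49 dKO sites (18.4%, 9.98 to 31.4%) were dKO-only, compared with 21.4%. These intervals cover counting error over sites only. With both lists shortened to the 20000 peaks of highest -log10 p, the balance turned round, with 8 WT-only sites of 48 (16.7%, compared with 19.7% of all) and 13 dKO-only sites of 54 (24.1%, compared with 18.9%).

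The counts by gene were small, and differences between genes were not tested. Over all sites, 27.6% of WT sites were WT-only and 14.4% of dKO sites dKO-only. *Foxp1* had 5 WT-only sites of 13 and *Tob1* and *Btg1* had 3 of 7 each, whereas *Foxo3* had no WT-only site and 3 dKO-only sites of 7. *Btg2* was the other gene with 3 dKO-only sites, out of 12, and *Foxo1*, *Tob1* and *Cdkn1b* had no dKO-only site. Per 100 kb of window, WT sites ranged from 2.05 at *Foxo3* and 2.95 at *Foxp1*, the longest gene, to 9.62 at *Btg2*, and dKO sites from 2.27 at *Foxp1* to 11.5 at *Btg2*. In 7 of 8 genes a shared site lay at the promoter of the gene itself, within 1 kb of an annotated TSS, and *Foxp1* was the exception.

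**Figure D1:**
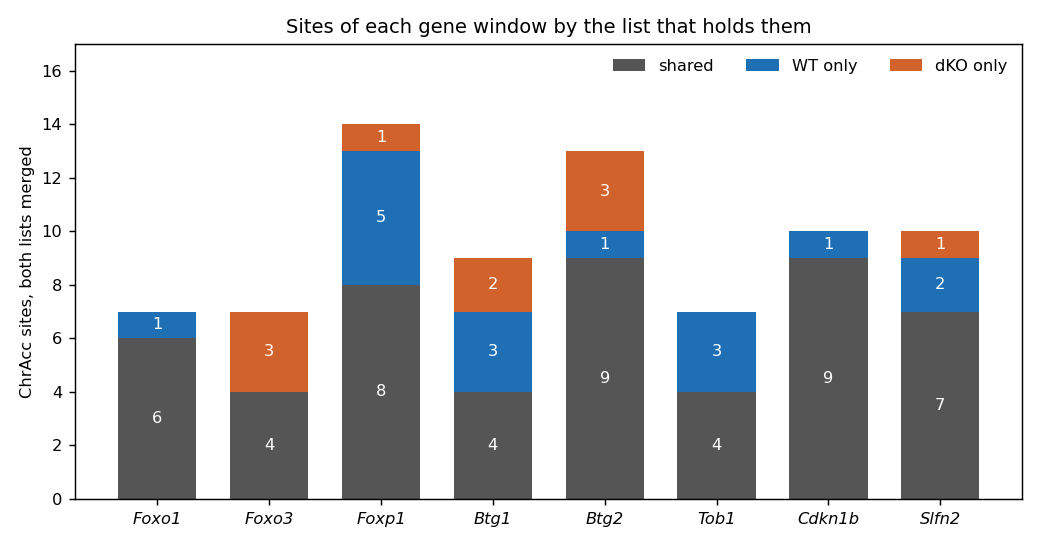
Number of ChrAcc sites in each gene window (y axis, sites of both lists merged) by gene (x axis), stacked as sites found in both genotypes (grey), in WT only (blue) and in dKO only (orange). Shared sites form the larger part of every bar except that of *Btg1*, where 4 of 9 were shared, and *Foxo3* shows 3 dKO-only and no WT-only site.

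The position, width and base content of the sites are given as descriptions, without a test. In WT cells 22.4% of the sites of the 8 genes lay within 1 kb of any annotated TSS of a protein-coding gene, compared with 39.2% of all WT sites, and in dKO cells 20.97% compared with 41.2%. The median width was 189 bp compared with 207 bp in WT and 167 bp compared with 191 bp in dKO. The median GC content of the 201 bp around the summit was 49.3% in WT and 50.2% in dKO cells, compared with 53.2% over all sites of either list.

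Sites were compared between lists by the percentile of their fold enrichment within their own list, with 100 for the highest and 0 where a list had no site. At the 51 shared sites the percentile was higher in WT at 23 and higher in dKO at 28, and the median difference, dKO minus WT, was 0.948 compared with -2.56 over all shared sites. Its sign depended on the value ranked, since it was -1.45 by -log10 p and -3.72 by pileup. Fragments at the summit are given unscaled, and the WT pool is the deeper, so they are not to be compared between lists without the scaling used further on. Distances are given from the TSS in kb, negative upstream and positive downstream.

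*Foxo1* lies on chromosome 3 from 52072259 to 52154031 on the plus strand. Its promoter site, at the TSS in the 5′ UTR of exon 1, ranked at 41.8 in WT and 26.5 in dKO cells, with 78 and 40 fragments at the summit. A site at -5.74 kb was the strongest in WT, at 73.3, and ranked at 47.7 in dKO, with 82 and 40 fragments. The strongest dKO site, in intron 1 at +75.4 kb, stood at almost the same place in both lists, 64.2 and 66.7. Of the upstream sites at -25.7 and -24.5 kb, the first ranked at 55.1 and 55.3 and the second at 36.3 and 35.7. A further shared site at +128 kb, past the 3′ end, had percentiles of 41.1 and 47.2. The only site found in 1 list was WT-only, in intron 1 at +54.9 kb, ranked at 19.98 with 29 fragments. Of the 6 shared sites, the promoter site and that at -5.74 kb thus ranked lower in dKO cells, and the other 4 lay close to their WT rank.

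*Foxo3*, on chromosome 10 from 41901647 to 41996561 on the minus strand, was, with *Btg2*, a gene with more sites in dKO than in WT cells, 7 compared with 4. Its strongest WT site, at -0.970 kb in the promoter, ranked at 63.7 in WT and 74.6 in dKO with 155 and 112 fragments. A second promoter site, at +0.050 kb in the 5′ UTR, ranked at 9.92 and 20.9. An intron 2 site at +7.49 kb followed at 27.9 and 34.9, and an intron 3 site at +83.5 kb, ranked at 39.0 and 25.3, was the only shared site of the gene that was higher in WT. The 3 dKO-only sites lay at -14.8 kb (percentile 65.3, 42 fragments), at -18.5 kb (63.4, 41 fragments) and in intron 2 at +56.1 kb (16.8, 22 fragments). The upstream pair, whose sequences are printed above, were the highest ranked dKO-only sites of the 8 genes, and the WT list as deposited had no peak there at all.

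*Foxp1*, on chromosome 6 from 98875332 to 99216526 on the minus strand, had no promoter site in either list, although later annotations extend the gene farther upstream than the one used here, across the region counted as upstream below. That region is also part of the annotated body of *Eif4e3*. In all, 5 upstream sites and 1 site inside the gene were found in 1 genotype alone. The WT-only sites ranked at 55.0 at -43.2 kb (60 fragments), at 38.6 at -9.05 kb (45 fragments), at 33.8 in intron 4 at +209 kb (37 fragments), at 9.53 at -36.7 kb and at 4.53 at -8.37 kb. The dKO-only site, at -3.65 kb, ranked at 59.1 with 43 fragments and was the strongest dKO site of the gene. Among the shared sites, 5 of 8 ranked higher in WT cells. The site in intron 6 at +253 kb ranked at 49.6 and 19.7, with 49 and 23 fragments, and that in intron 2 at +24.7 kb at 53.6 and 27.9, with 50 and 26 fragments. The counting intervals of their scaled log2 ratios, -0.53 (-1.31 to 0.22) and -0.38 (-1.12 to 0.33), both covered 0. A pair in intron 3, at +170 and +171 kb, ranked at 39.8 and 22.6 in WT and at 29.5 and 10.6 in dKO. Going the other way, the site at -16.8 kb ranked at 10.3 in WT and 34.8 in dKO, with 29 and 30 fragments. The remaining shared sites were weak in both lists, at 16.6 and 19.0 at +4.89 kb, at 11.1 and 13.3 at -9.27 kb, and at 12.7 and 6.92 at +240 kb in intron 4.

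**Figure D2:**
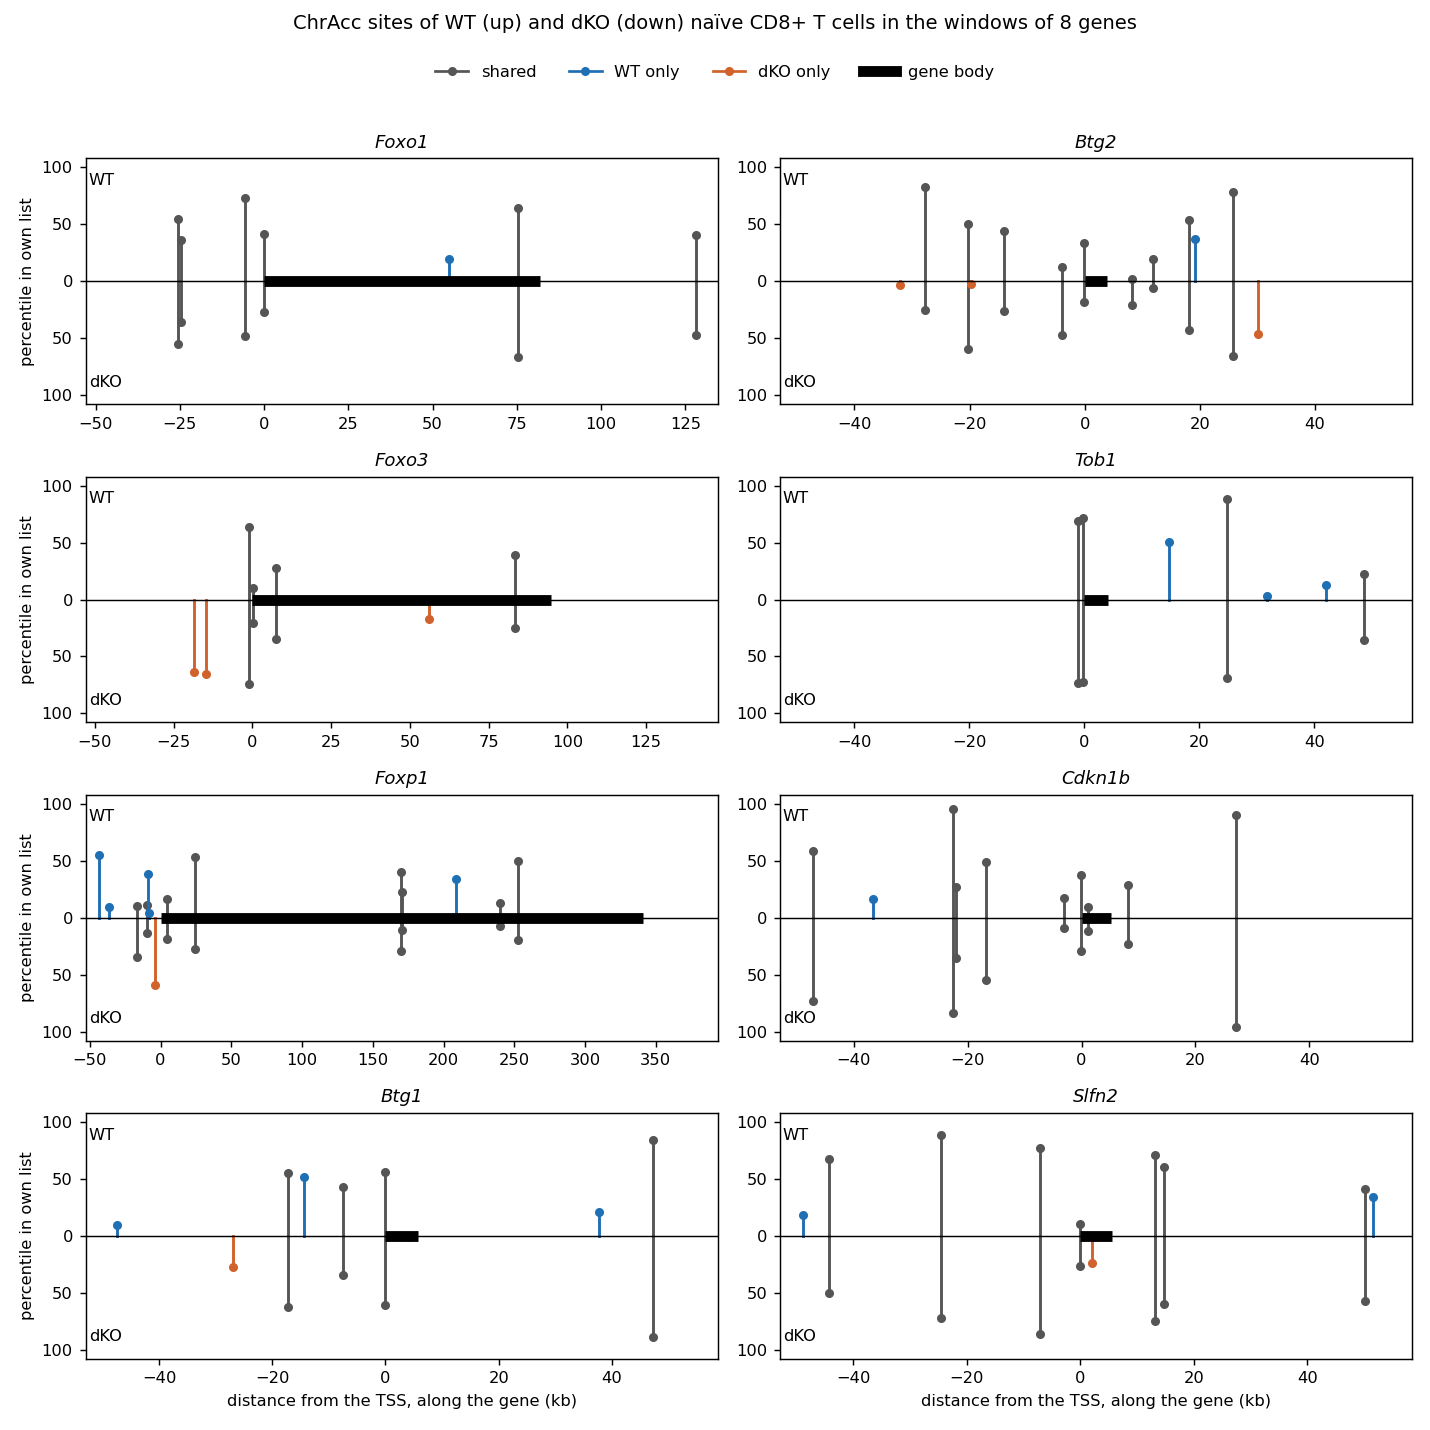
Sites in the 8 gene windows, with the distance from the TSS along the gene in kb (x axis) and the percentile of fold enrichment in the own list (y axis, WT upward and dKO downward). Each stem is a site, grey where both genotypes had it, blue for WT-only and orange for dKO-only, and the black bar is the gene body. The orange pair upstream of *Foxo3* and the blue sites upstream of *Foxp1* have no stem on the other side.

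*Btg1*, on chromosome 10 from 96079635 to 96085447 on the plus strand, kept its promoter site in dKO cells. That site, at -0.143 kb, ranked at 55.6 in WT and 61.2 in dKO with 140 and 105 fragments. The strongest site of the window, at +47.3 kb, ranked at 84.2 and 88.6, and one at -17.3 kb at 55.5 and 62.7. A site at -7.50 kb ranked at 43.0 in WT and 34.1 in dKO. Between these, the site at -14.4 kb was found in WT alone, at 51.7 with 83 fragments over its summit. The other WT-only sites, at +37.8 kb and -47.4 kb, ranked at 20.7 and 9.18, and the first of them holds the Tcf/Lef core printed above. Of the dKO-only sites, that at -27.0 kb ranked at 27.1, and that in the 3′ UTR at +4.14 kb ranked at 1.47 and overlapped a deposited WT peak that missed the criteria for a site.

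*Btg2*, on chromosome 1 from 135971747 to 135975697 on the minus strand, had the densest window. Its site at -27.8 kb ranked at 82.6 in WT, the highest of the gene, and at 25.3 in dKO, with 76 and 25 fragments. The nearest annotated protein-coding TSS to it, 2397 bp away, belongs to *Gm8618*. In the opposite direction, the site at -3.99 kb ranked at 12.5 in WT and 47.0 in dKO, with 45 and 53 fragments, and the site at +8.23 kb at 1.72 and 20.8, with 29 and 31 fragments. The promoter site, at -0.039 kb, ranked at 33.3 in WT and 18.4 in dKO. Its other shared sites ranked at 78.4 in WT and 65.3 in dKO at +25.7 kb, at 53.8 and 42.7 at +18.1 kb, where the Tcf/Lef core lies, and at 50.1 and 59.2 at -20.2 kb. The one at -14.0 kb ranked at 43.8 and 26.2, and the one at +11.8 kb at 19.4 and 6.24. A WT-only site at +19.2 kb ranked at 37.5 and had 89 fragments, the most of any WT-only site of the 8 genes. The dKO-only sites ranked at 45.9 at +30.2 kb, at 3.02 at -32.0 kb, which is the promoter of *Chit1*, and at 2.18 at -19.8 kb.

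*Tob1*, on chromosome 11 from 94072768 to 94076809 on the plus strand, had a pair of strong sites at its start that were alike in both lists. At -0.222 kb the percentiles were 71.6 in WT and 72.5 in dKO, with 106 and 64 fragments, and at -1.12 kb they were 68.6 and 73.1. The sites that differed in rank lay downstream. The site at +24.8 kb, within *Wfikkn2*, was the strongest WT site of the window and ranked at 88.7 in WT and 69.0 in dKO, whereas that at +48.6 kb ranked at 22.1 and 35.7. The 3 WT-only sites ranked at 50.9 at +14.7 kb (45 fragments), at 13.2 at +41.9 kb and at 3.46 at +31.7 kb, which is within 1 kb of the TSS of *Wfikkn2*.

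*Cdkn1b*, on chromosome 6 from 134870419 to 134875531 on the plus strand, had the largest share of shared sites, 9 of 10. The promoter site, at -0.048 kb, ranked at 37.7 in WT and 28.9 in dKO with 103 and 68 fragments, and the site in intron 1 at +1.23 kb at 9.26 and 11.9. At -3.10 kb the percentiles were 17.2 and 9.27, and at +8.12 kb 29.1 and 23.4. The strongest site of all 8 genes in WT cells lay in this window at -22.5 kb, where the neighbouring gene *Gpr19* starts, at 95.2 in WT and 83.3 in dKO with 182 and 100 fragments. The strongest in dKO cells, at +27.2 kb, ranked at 89.97 in WT and 95.9 in dKO. A second site at the *Gpr19* start, at -22.1 kb, ranked at 27.3 and 35.1, and one at -16.8 kb at 48.6 and 54.8. The site at -47.1 kb within *Gpr19* ranked at 58.7 in WT and 73.2 in dKO, with 50 and 52 fragments, and its sequence has 2 near-identical copies elsewhere in the genome. The only site of 1 list was WT-only, at -36.6 kb, ranked at 16.6 with 30 fragments.

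*Slfn2*, on chromosome 11 from 82878614 to 82884180 on the plus strand, sits in a cluster of related genes, and 4 of its 10 sites have near-identical copies elsewhere in the genome, between 1 and 9 each, where reads are harder to place uniquely. Its promoter site, at -0.047 kb, was weak in both lists, at 10.3 in WT and 26.3 in dKO with 33 and 30 fragments. At -7.08 kb, the strongest dKO site of the window had percentiles of 77.1 in WT and 85.9 in dKO cells. The strongest WT site, at -24.6 kb beside *Slfn10-ps*, ranked at 88.3 and 72.2 and has 1 such copy. The site at -44.2 kb, at the start of *Slfn8*, ranked at 67.4 and 50.6, and that at +13.2 kb at 70.9 and 74.6. The other 2 sites with copies, at +14.8 and +50.2 kb, ranked at 60.1 and 41.2 in WT and at 60.1 and 57.5 in dKO. The WT-only sites lay near the starts of other Schlafen genes, at +51.6 kb beside *Slfn1* (33.9) and at -48.8 kb beside *Slfn8* (18.4, with 1 copy), and the dKO-only site lay in intron 1 of *Slfn2* itself at +2.14 kb (24.1).

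To compare levels at the shared sites, the pileup at the summit was divided by the fragments kept for its list, and the log2 ratio of dKO to WT was centred on the median of all 20533 shared sites, which was -0.13 before centring. The median over the 51 sites was 0.05 and the values ran from -1.04 to 0.80. With 95% Clopper-Pearson intervals that cover the counting of fragments and nothing else, 48 of the 51 covered 0. Over all shared sites, 12.9% of intervals did not. The *Btg2* site at -27.8 kb was 2.06-fold lower in dKO, with a log2 ratio of -1.04 (-1.75 to -0.37), and was the only one of the 51 more than 2-fold higher in WT, compared with 0.75% of all shared sites. None was more than 2-fold higher in dKO, compared with 1.51%. The other 2 intervals clear of 0 belonged to the *Btg2* site at -3.99 kb, 1.74-fold higher in dKO (log2 0.80, 0.20 to 1.41), and the *Cdkn1b* site at -47.1 kb, 1.54-fold higher (log2 0.62, 0.03 to 1.21). Only the *Btg2* site at -27.8 kb lay outside the central 95% of all shared sites, which ran from -0.74 to 0.86.

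**Figure D3:**
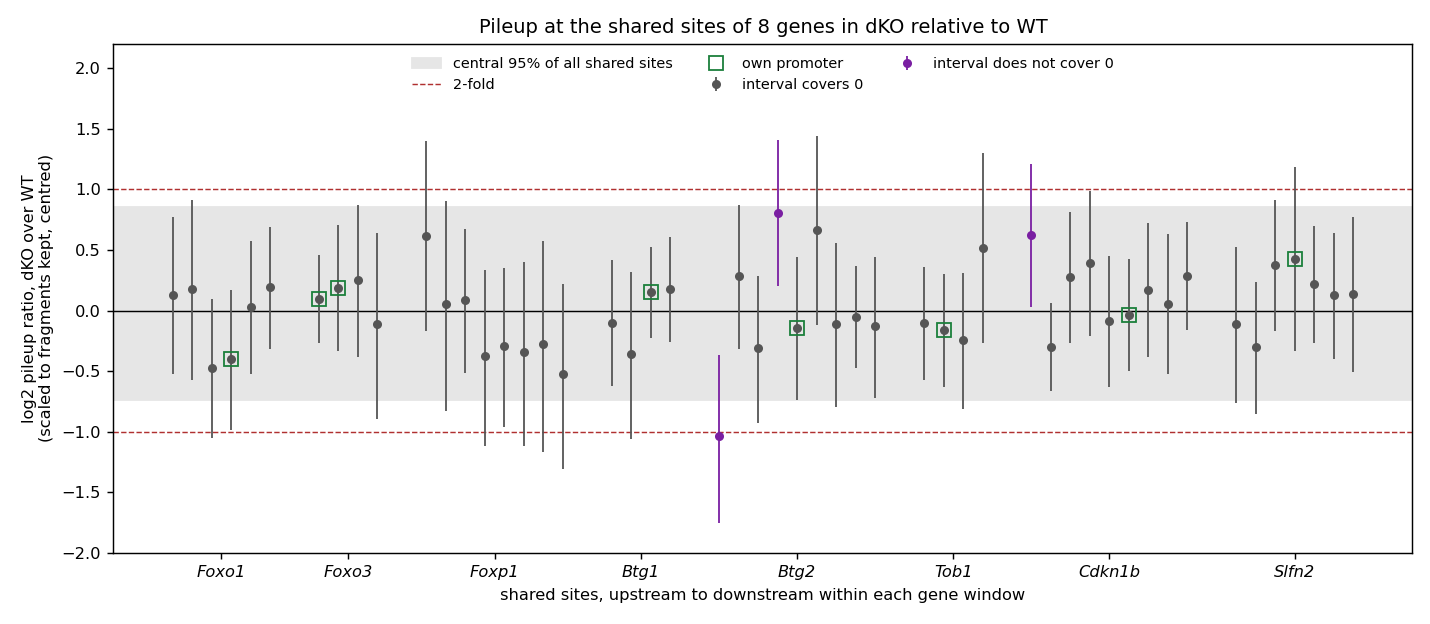
Centred log2 ratio of the pileup scaled to the fragments kept, dKO over WT (y axis), at the 51 shared sites, ordered from upstream to downstream within each gene (x axis). Bars are 95% counting intervals, the grey band holds the central 95% of all shared sites, dashed lines mark a 2-fold difference and green squares mark sites at the promoter of the gene itself. The 3 purple sites have intervals clear of 0, and the lowest, at *Btg2*, passes the 2-fold line.

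Among the 8 shared sites at the promoters of the genes themselves, the centred ratio ran from -0.40 at *Foxo1* (-0.99 to 0.17) to 0.43 at *Slfn2* (-0.34 to 1.19), and every interval covered 0. For *Foxp1*, 5 of 8 shared sites had a ratio below 0, with a gene median of -0.28, the lowest of the 8 genes, and all 5 lay in the introns from +24.7 kb on. For *Cdkn1b* and *Foxo3* the medians were 0.17 and 0.14.

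The pileup that a WT-only site would have in the shallower dKO pool was set against the pileup needed there. If the scaled and centred level were unchanged, 14 of the 16 WT-only sites would still have reached the pileup needed for 4-fold enrichment, compared with 83.0% of all WT-only sites. The local background is scaled along with the pileup, so this outcome follows mainly from the fold enrichment of the site in WT. It marks sites near the 4-fold limit and does not show that the others changed in dKO cells. For the 10 dKO-only sites the same reckoning tells nothing, since scaling up to the deeper WT pool keeps every site past 4-fold by construction, as it did for 100% of all dKO-only sites. At the *Btg1* site at -14.4 kb, 56.1 fragments would have been expected in dKO and 28.9 needed, and at the *Foxp1* site at -43.2 kb 40.6 and 20.1. The *Foxp1* site at -8.37 kb, with 19.6 expected and 20.5 needed, and the *Tob1* site at +31.7 kb, with 14.9 and 16.0, would have fallen short of it. This reckoning takes the local background of the pool that has the site and ignores counting error, so that sites with a small margin, such as *Foxp1* at -36.7 kb with 18.9 expected and 18.1 needed, are not informative. Strength also mattered across the lists. Among all WT sites in the tenth of the list that holds the *Foxp1* site at -43.2 kb and the *Btg1* site at -14.4 kb, 78.4% overlapped a dKO site, and among all dKO sites in the tenth that holds the *Foxo3* pair, 94.0% overlapped a WT site.

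**Figure D4:**
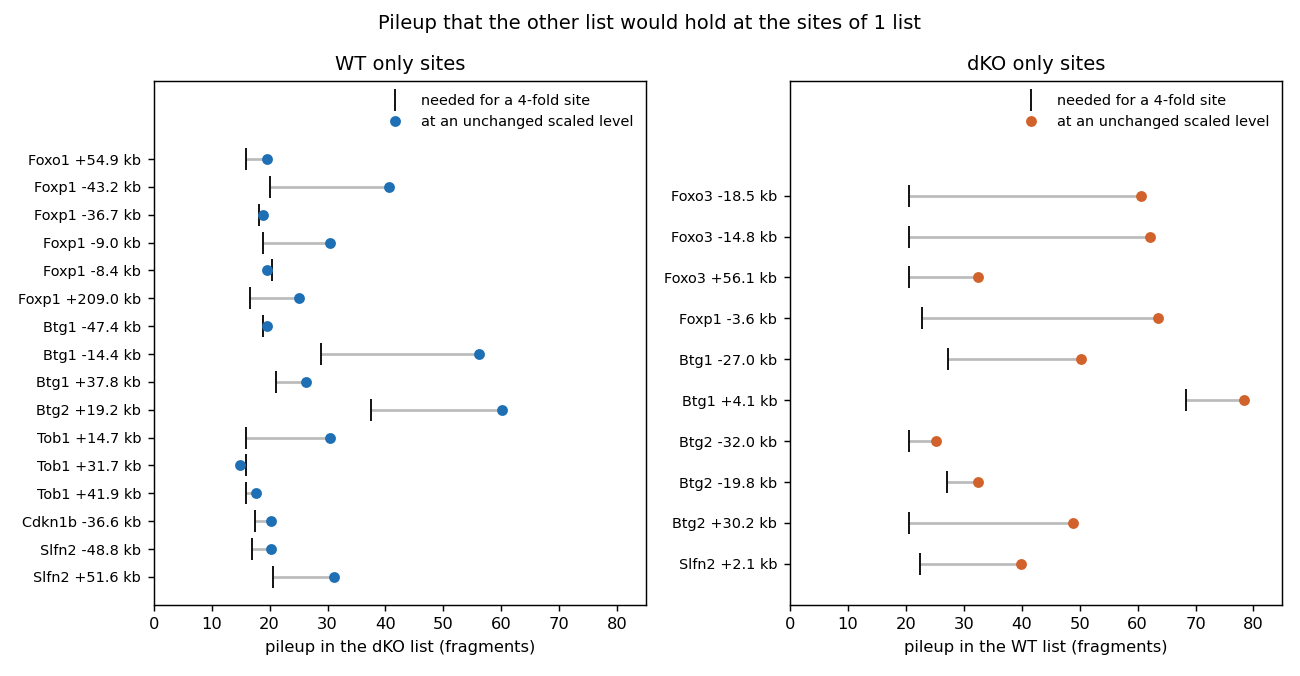
For each WT-only site (left) and dKO-only site (right), the pileup in fragments that the other list would hold at an unchanged scaled level (dot) and the pileup needed there for a 4-fold site (tick). Dots lie to the right of their tick at 14 of 16 sites in the left panel, where this follows mainly from the WT fold enrichment. In the right panel all do so by construction.

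The core Tcf/Lef letters were searched within 100 bp of each summit on both strands. ATCAAAG was found at 3 of 67 WT sites (4.48%, 1.53 to 12.4%) compared with 3.81% of all WT sites, and at 2 of 62 dKO sites (3.23%) compared with 2.42%. One of the 3 was WT-only, at *Btg1* +37.8 kb, so that 1 of 16 WT-only sites held the core, compared with 6.98% of all WT-only sites. The forkhead letters TGTTTAC were found at 6 of 67 WT sites (8.96%, 4.17 to 18.2%), compared with 2.82% of all WT sites, and at 6 of 62 dKO sites (9.68%, 4.51 to 19.5%), compared with 2.996%. In WT cells, 3 of these 6 sites lay in the *Cdkn1b* window, at -22.1, -3.10 and +1.23 kb, and the others at the *Btg1* promoter, at *Btg2* +11.8 kb and at the *Foxp1* WT-only site at -43.2 kb. The matches at *Cdkn1b* -3.10 and +1.23 kb and at *Btg2* +11.8 kb lay just outside the called WT peak. Among distal sites, TGTTTAC was found at 4 of 52 in WT (7.69%, 3.03 to 18.2%), compared with 3.52% of all distal WT sites. In dKO it was found at 4 of 49 (8.16%, 3.22 to 19.2%), compared with 3.75%. Both distal intervals thus covered the share of the whole list. TGTGGTT, of Runx factors, was found at 11.9% of WT member sites and 9.67% of all, and CAGGAAG, of Ets factors, at 11.9% and 18.2%, with an interval of 6.18 to 21.8% for both member shares. Among distal WT sites, CAGGAAG was found at 5 of 52 (9.62%, 4.18 to 20.6%), an interval below the 22.8% of all distal WT sites. In dKO the distal share was 16.3%, and its interval covered the 22.99% of all distal dKO sites. None of these letter strings contains another. A match describes the letters alone and not a bound factor.

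A list of 31 other genes of these families and of T cell quiescence was read in the same way, and it shares windows in part with *Slfn2* through neighbouring Schlafen genes. Their windows held 151 WT and 131 dKO sites. Of these, 38 (25.2%) were WT-only, compared with 27.6% of all WT sites. A further 15 (11.5%) were dKO-only, compared with 14.4% of all dKO sites. A promoter site was present at 24 of the 31 genes in WT and 21 in dKO cells. By family, WT-only sites made up 31.3% at 7 forkhead genes, 16.7% at 3 BTG and Tob genes, 29.4% at 5 CDK inhibitor genes, 26.3% at 6 Schlafen genes and 22.5% at 10 others, which include *Klf2* and *Tsc1*. The promoter of *Foxj1*, a forkhead gene linked to T cell tolerance, ranked at 66.7 in WT and 27.9 in dKO, and that of *Foxo4* at 59.2 and 91.7. *Klf2*, a target of Foxo1 that keeps T cells recirculating, had 14 WT and 12 dKO sites, with a promoter site at 48.5 in WT and 18.9 in dKO. The promoter of *Slfn1* ranked at 33.9 in WT and had no site in dKO. It is the WT-only site at +51.6 kb already described in the *Slfn2* window. The promoters named here are examples that differed in rank. Others ranked nearly alike in WT and dKO, such as those of *Rbl2* (83.9 and 81.4) and *Peli1* (83.3 and 86.0).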

How the data were processed

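DNase-seq of naïve CD8+ T cells from WT mice (3 replicates) and dKO mice (2 replicates) was used. Per the methods and the submitters' processing notes, reads were checked with FastQC, aligned to mm9 with Bowtie2 2.2.5, restricted to unique alignments and pooled by genotype, and the authors called peaks on the paired fragments of each pool with MACS2 2.1.1, using no control sample. The file headers list each pool under a pair of inputs, with 167847468 fragments listed for WT and 124485926 for dKO, of which 83923734 and 62242963 were kept after filtering. Kept and listed numbers stand in exactly the same ratio in both pools, so the share of duplicates cannot be read from them. The kept number was taken as the depth. The pileup was deposited as an unscaled signal, the fragments that span the summit. Fold enrichment was deposited as a ratio, in which the authors' caller set this number against a background of the same pool. That background came from up to 10 kb around, or was the genome average where that was higher. The lowest background of a peak was 4.38 fragments in WT and 3.22 in dKO, near the genome averages of 4.40 and 3.23. How unlikely the summit was under that background was deposited by the authors as -log10 p and, after adjustment, -log10 q.

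Peaks counted as ChrAcc sites when their enrichment reached 4-fold, p lay under 1e-05 and q lay under 0.05. Sites overlapping by at least 1 bp were shared. Gene bodies, exons and TSSs came from the gencode vM1 annotation of mm9, and no peak lay beyond a chromosome end of that assembly. Promoter and distal sites, and the nearest TSS, were set by the TSSs of protein-coding genes only. The sites named were the strongest site of each gene in each list, all promoter sites (within 1 kb of a TSS), up to 3 WT-only and 3 dKO-only sites per gene, shared sites past 2-fold and sites with ATCAAAG, and the remaining sites were added for completeness. Levels at shared sites were compared as the ratio of pileup per fragment kept, centred on the median of all shared sites. Near-identical copies were blastn 2.17.0 matches that covered 80% or more of the 201 bp around a summit at 90% identity or more. Computation used Python 3.11.15, numpy 2.4.6, pandas 2.3.3, scipy 1.17.1 and matplotlib 3.10.9, and the overlap and ratio steps were tested on simulated data. The 8 genes, the gene lists and the motifs were chosen with earlier results of these data known, and the CTCF letters after the sequences of the sites had been read. Intervals cover counting error only. Read counts per replicate, the differential test of the study and the other assays were not analysed here. A few genes of the marker and quiescence lists are not reported here.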

Additional observations from a re-analysis of the deposited data

How the results depend on the processing

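Of 81 alternative values, 65 moved by less than their margin and 16 moved. Some of the 65 changed sign, among them the medians of the percentile difference and of the log2 ratio given below. With a minimum fold enrichment of 8, the 8 genes kept 28 WT and 28 dKO sites, with 7 WT-only and 7 dKO-only sites. At that criterion the WT-only share was 25.0%, compared with 25.9% of all WT sites. The dKO-only share was 25.0%, compared with 14.6% of all dKO sites. WT-only sites numbered 26 in the lists as deposited (32.5%, compared with 30.1% of all WT sites). With both lists shortened to the 20000 peaks of highest -log10 p, 8 of 48 WT sites were WT-only (16.7%, compared with 19.7%) and 13 of 54 dKO sites dKO-only (24.1%, compared with 18.9%), so that the balance of the main counts turned round. With windows of 20 kb, 7 of 42 WT sites were WT-only (16.7%), and with windows of 100 kb 25 of 87 (28.7%), both compared with 27.6% of all. In the gene bodies alone there were 14 WT and 16 dKO sites, 2 of them WT-only (14.3%, compared with 27.6%) and 3 dKO-only (18.8%, compared with 14.4%). With motifs searched within 50 bp of the summit, ATCAAAG was left at 1.49% of WT sites and at 0% of dKO sites, and at 0% of dKO sites at a fold enrichment of 8. Fewer sites or shorter windows are part of these settings, and other causes were not tested. The median percentile difference at shared sites, 0.948 by fold enrichment, was -1.45 by -log10 p and -3.72 by pileup, so that its sign depends on the value ranked. The median log2 ratio was -0.08 without centring and -0.02 when centred on promoter and distal sites apart. The *Btg2* site at -27.8 kb stayed the 1 site past 2-fold, between -1.17 and -1.02. Leaving out each gene in turn, chosen after the data had been seen, gave WT-only shares from 20.4% (without *Foxp1*) to 26.3% and dKO-only shares from 12.7% (without *Foxo3*) to 18.9%.

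The lists are pools, and leaving out a replicate was not an option. No paired analysis was possible because the lists carry no replicate numbers and no test was run between genotypes. The dKO pool has fewer fragments, and weak WT-only sites are at the limit of its detection.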

Other observations

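The letters CCANNAGNNGGC, the middle of the CTCF consensus, were looked for within 100 bp of the summits on both strands after the sequences had been read, so the search was chosen with the data in view. They were found at 7 of 67 WT sites of the 8 genes (10.4%), compared with 11.7% of all WT sites, and at 9 of 62 dKO sites (14.5%), compared with 11.3% of all dKO sites. Of the 10 dKO-only sites 3 held them (95% Wilson interval 10.8 to 60.3%), compared with 14.2% of all dKO-only sites, and these 3 were the *Foxo3* sites at -14.8 and -18.5 kb and the *Btg2* site at +30.2 kb. Of the 16 WT-only sites 1 held them (6.25%, 1.11 to 28.3%), at *Btg2* +19.2 kb, compared with 13.7% of all WT-only sites. Among shared sites, the letters lay at *Foxo1* -5.74 and -24.5 kb, *Tob1* +24.8 kb, *Cdkn1b* +27.2 and -47.1 kb and *Slfn2* -7.08 kb.

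Several strong sites in the windows lay at the start of a neighbouring gene rather than of the gene itself, among them *Gpr19* in the *Cdkn1b* window (percentile 95.2 in WT and 83.3 in dKO) and *Slfn8* in the *Slfn2* window (67.4 and 50.6). Which gene a distal site acts on was not measured in these data.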
